A study of Pogona vitticeps with 24 samples.

Results

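The genes described here are the Wnt pathway genes of the bearded dragon *Pogona vitticeps*, the ligands, receptors and transducers of the pathway, in microdissected dental tissue. They were matched by symbol, from the families WNT, FZD, DVL, AXIN, TCF7, CTNNB, GSK3, CSNK1, TLE, VANGL and DAAM together with *LEF1*, *LRP5*, *LRP6*, *APC*, *APC2*, *ROR1*, *ROR2*, *RYK*, *PORCN*, *WLS*, *RNF43* and *ZNRF3*. This list of symbols was drawn up with earlier results of these data known. The deposited table lists 11126 genes, and 47 of them matched. Of these, 46 had a mean of at least 3 log2 CPM (reads of a gene relative to the size of the library, on a log2 scale) over the usable columns, as did 9987 of the listed genes. *ZNRF3*, the member below that level, was left out of the counts and is given with its values.

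Laser capture was used to take dental lamina epithelium and the mesenchyme around it from hatchlings, at an anterior and a posterior site of the jaw, which in wild-type (WT) animals bear pleurodont and acrodont teeth. The paper's methods give the stage as that of the successional dental lamina in hatchlings, which they equate with tooth initiation in the embryo. The animals were 3 WT and 3 scaleless mutants, which the paper's methods give as heterozygous (*Sca*/+, carrying a spontaneous mutation in 1 copy of *EDA*). In the mutants the anterior tooth phenotype was judged only roughly, by eye, before sectioning. The 24 samples form 8 groups of 3, and the deposited table holds a single value per gene and group, so differences between groups come without replicate error and are not tested. WT posterior epithelium was left out, since in 11120 of the 11126 genes its deposited value is that of the gene before it plus 1e-09. Position in WT could therefore be compared in mesenchyme only, and genotype in 3 tissues.

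Wnt proteins are lipid-modified secreted ligands that bind Frizzled receptors. In the canonical branch, Frizzled with LRP5 or LRP6 recruits Dishevelled and disables a complex of Axin, APC, glycogen synthase kinase and casein kinase that otherwise marks beta-catenin for destruction, and beta-catenin then enters the nucleus and switches TCF/LEF factors from repression to activation. Other branches act through ROR and RYK receptors, or through Vangl and Daam proteins, on cell polarity and the cytoskeleton. In the mouse, canonical Wnt signaling in oral epithelium is needed for teeth to pass the bud stage, and its forced activation makes extra teeth.

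In all 7 usable columns the values of all genes were whole multiples of 1 smallest step, within 0.0065 CPM, so each step was taken as 1 count. Each difference was given a 95% interval from the exact binomial limits of Clopper and Pearson on the steps, for counting error alone. Depth lay between 789353 steps in *Sca*/+ anterior mesenchyme and 3264515 in *Sca*/+ posterior epithelium. The members had medians of 67, 120 and 170 steps in WT anterior, *Sca*/+ anterior and *Sca*/+ posterior epithelium, and of 54, 49, 35 and 72 in WT anterior, WT posterior, *Sca*/+ anterior and *Sca*/+ posterior mesenchyme. No gene of the table lay below 1.13 CPM in any of these columns, so a Wnt gene that was silent in 1 tissue is not in it, and the values cannot show a member confined to a compartment. In their sums the markers matched the labelled compartments. The 12 epithelial markers in the table, among them *CDH1* and *EPCAM*, summed to between 12197 and 16164 CPM in epithelium and between 3193 and 6730 CPM in mesenchyme. In the WT anterior, *Sca*/+ anterior and *Sca*/+ posterior pairs, 11, 9 and 9 of the 12 were at least 1 log2 unit higher in epithelium. *KRT18* went the other way in the *Sca*/+ posterior pair, at 5.00 log2 CPM in epithelium and 6.87 log2 CPM in mesenchyme. The 12 mesenchymal markers, among them *VIM* and *PDGFRA*, summed to between 8204 and 14583 CPM in epithelium and between 43048 and 132048 CPM in mesenchyme. In the same pairs 12, 11 and 12 of them were at least 1 log2 unit lower in epithelium. These are bulk tissues, in which fewer cells of a type and less RNA per cell cannot be told apart.

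Below, the 7 values of a gene are always in the same order: WT anterior, *Sca*/+ anterior and *Sca*/+ posterior for epithelium, then WT anterior, WT posterior, *Sca*/+ anterior and *Sca*/+ posterior for mesenchyme. The words higher and lower stand for a gap of at least 1 log2 unit between 2 columns, a rule of size with no test behind it. Comparisons that use the same column are not independent of each other. The columns of WT anterior mesenchyme, *Sca*/+ anterior mesenchyme, *Sca*/+ posterior mesenchyme and *Sca*/+ anterior epithelium each enter 3 of the 9 comparisons.

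**Figure D1:**
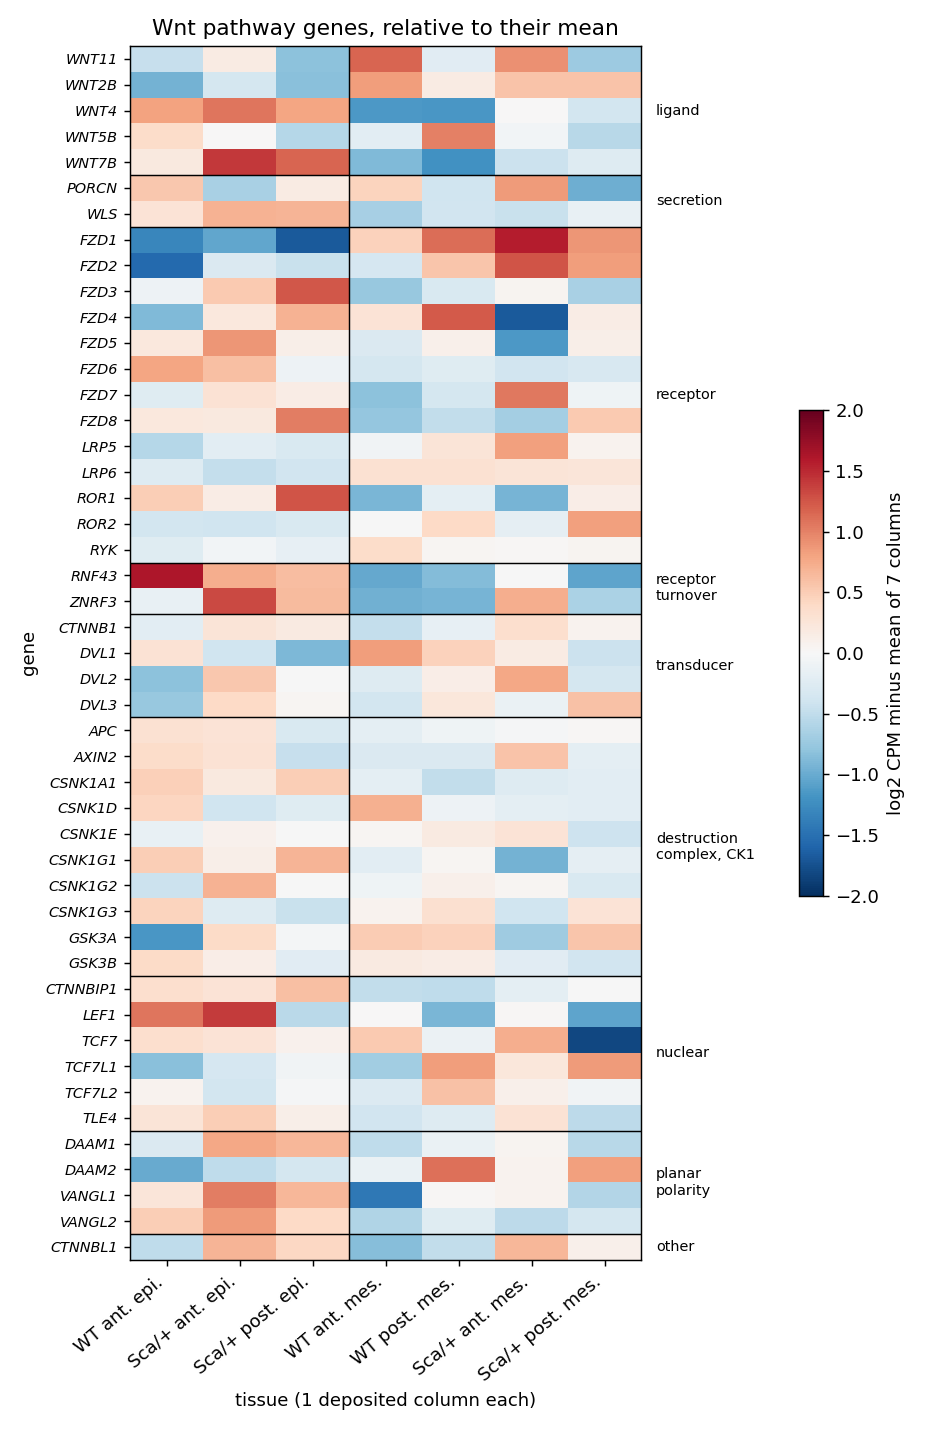
Level of each of the 47 Wnt pathway genes in the 7 usable tissues, as log2 CPM minus the gene's mean over these columns (red above, blue below); rows are grouped by role, and the vertical line parts epithelium from mesenchyme. *FZD1* lies below its mean in all epithelial columns and above it in all mesenchymal ones, and *WNT7B* the other way round. *FZD2* lies below its mean in WT anterior mesenchyme too, and *WNT4* and *RNF43* lie level with theirs in *Sca*/+ anterior mesenchyme. *APC*, *RYK* and *CSNK1E* vary by less than 0.7 log2 units.

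The deposited table lists only genes with a level in every usable column, so the 5 ligand genes and 8 Frizzled genes kept have values in both compartments by its makeup. Some members differed in level between epithelium and mesenchyme. *WNT4*, *WNT7B* and *ROR1* were higher in epithelium, and *FZD1* and *FZD2* higher in mesenchyme, in each of the 3 tissue pairs compared (WT anterior, *Sca*/+ anterior and *Sca*/+ posterior). These 3 and 2 members are 6.52% and 4.35% of the 46, where 1.55% and 6.07% of all 9987 genes kept passed 1 log2 unit in the same direction in the 3 pairs. In WT anterior tissue 8 of the 46 members were higher in epithelium and 6 lower, against 8.66% and 12.7% of all genes. In *Sca*/+ anterior tissue 10 were higher and 4 lower, against 11.5% and 14.3% of all genes. In *Sca*/+ posterior tissue 9 were higher and 5 lower, against 12.1% and 13.7% of all genes. As shares of the members the higher calls were 17.4%, 21.7% and 19.6% and the lower calls 13.0%, 8.70% and 10.9%, so the higher share lay above the background and the lower share near or below it. The median difference of the members was 0.31, 0.17 and 0.23 log2 units, beside 0.06, 0.05 and 0.04 over all genes.

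Among the ligands, *WNT4* and *WNT7B* sat on the epithelial side and *WNT2B* and *WNT11* on the mesenchymal side. *WNT4*, a ligand known for its part in forming kidney tubules, was at 5.57, 5.84 and 5.55 log2 CPM in epithelium and at 3.62, 3.59, 4.77 and 4.39 log2 CPM in mesenchyme. All 3 epithelial values lie above all 4 mesenchymal ones, with differences of 1.95 (counting interval 1.17 to 2.81), 1.06 (0.39 to 1.81) and 1.16 (0.64 to 1.72). Compartments without overlap were also seen in other members, *WLS* and *LRP6* among them, and the share of all genes with such a split was not counted. *WNT7B*, a ligand that in the mouse marks oral ectoderm outside the tooth-forming field, was at 4.99, 6.22 and 5.97 log2 CPM in epithelium and at 3.92, 3.59, 4.38 and 4.54 log2 CPM in mesenchyme. Its ranges in the compartments did not overlap either, and the differences were 1.07 (0.30 to 1.89), 1.84 (1.10 to 2.69) and 1.44 (0.95 to 1.96). *WNT2B*, which signals through beta-catenin, had 2.96, 3.55 and 3.07 log2 CPM in epithelium and 4.74, 4.06, 4.47 and 4.47 log2 CPM in mesenchyme. It was lower in epithelium in WT anterior tissue by -1.78 log2 units (-2.90 to -0.78) and in *Sca*/+ posterior tissue by -1.39 (-2.16 to -0.65), whereas the difference of -0.92 in *Sca*/+ anterior tissue fell short of the rule. *WNT11*, a ligand of cell movement in the frog and zebrafish gastrula, was at 5.61, 6.23 and 5.26 log2 CPM in epithelium and at 7.24, 5.84, 6.99 and 5.35 log2 CPM in mesenchyme. Its compartments overlapped, and only the WT anterior difference of -1.63 (-2.04 to -1.23) passed 1 log2 unit. *WLS*, the carrier that brings Wnt proteins to the cell surface, was between 8.17 and 8.60 log2 CPM in epithelium and between 7.24 and 7.75 log2 CPM in mesenchyme, and passed the rule only in *Sca*/+ anterior tissue, at 1.15 (0.88 to 1.42).

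**Figure D2:**
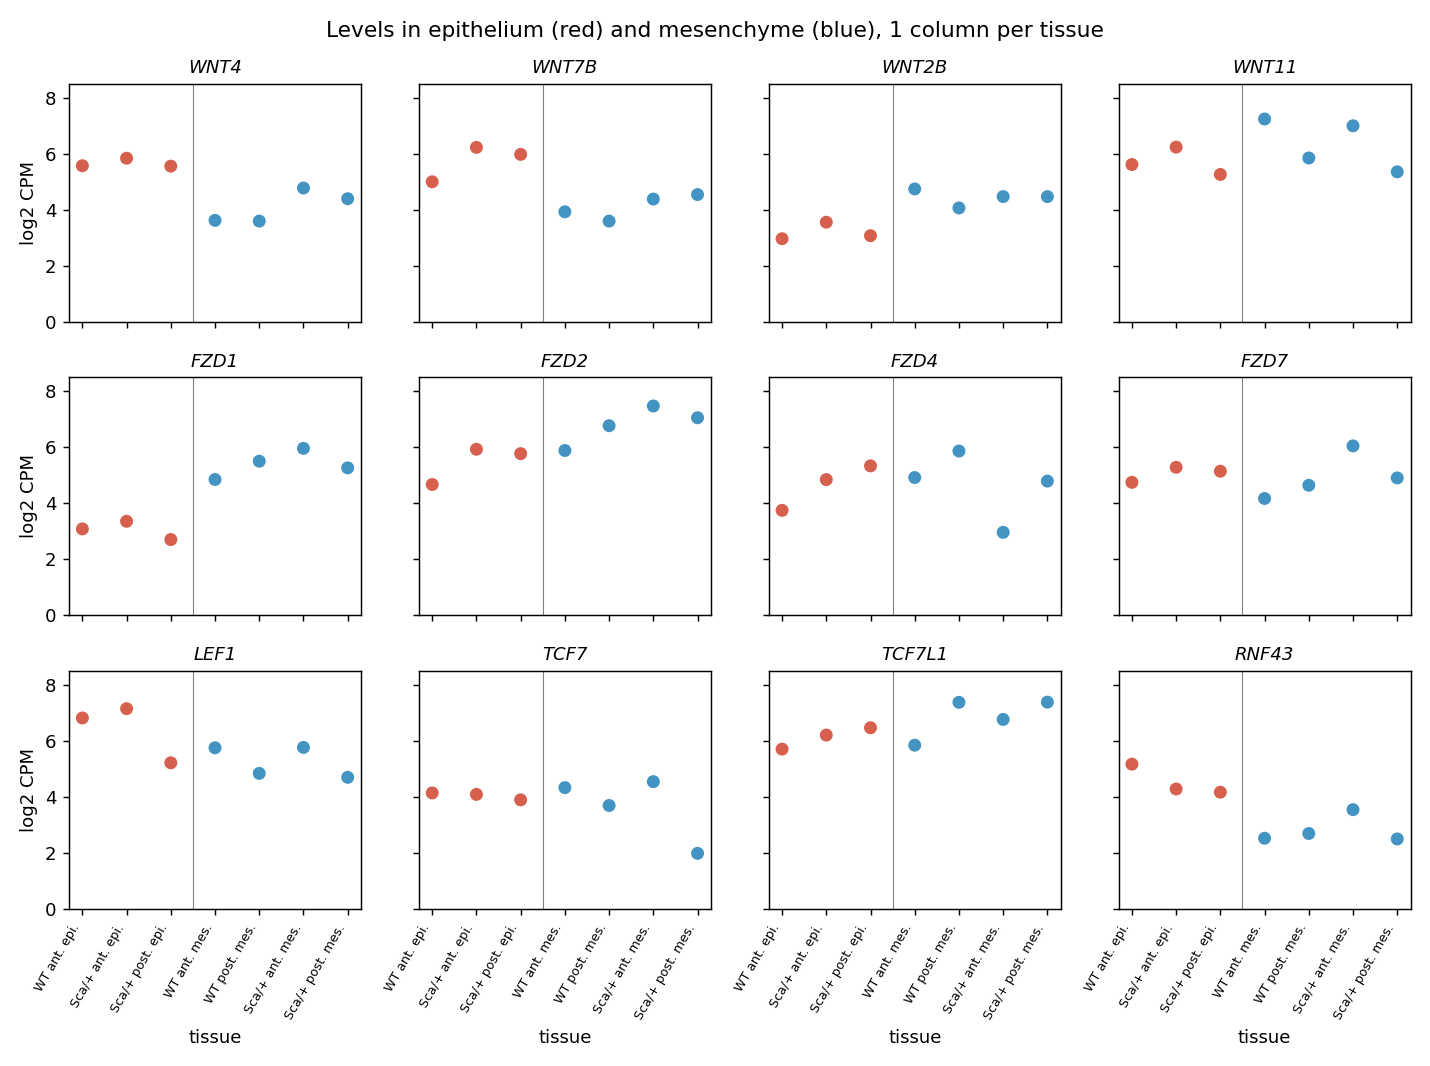
Level in log2 CPM of 12 members in each of the 7 usable tissues, with 1 point per tissue, since the table holds 1 value per group and no error. *WNT4* and *WNT7B* lie higher in every epithelial column (red) than in any mesenchymal one (blue), *FZD1* the other way round, and *LEF1* is lower at the posterior position in both compartments of *Sca*/+.

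Of the 8 Frizzled receptor genes, *FZD1* and *FZD2* passed the rule in all 3 pairs, *FZD3*, *FZD5* and *FZD6* in 1 pair each, *FZD4* in opposite directions in 2 pairs, and *FZD7* and *FZD8* in none. *FZD1* was at 3.09, 3.36 and 2.71 log2 CPM in epithelium and at 4.85, 5.51, 5.96 and 5.27 log2 CPM in mesenchyme. Its range over the 7 columns, 3.26 log2 units, was the widest of all members, and in the *Sca*/+ anterior pair it was 6.09-fold lower in epithelium, a difference of -2.61 log2 units (-3.42 to -1.84), beside -1.76 (-2.83 to -0.80) in the WT anterior and -2.56 (-3.34 to -1.84) in the *Sca*/+ posterior pair. *FZD2*, a receptor close in sequence to FZD1 and FZD7, was at 4.67, 5.93 and 5.77 log2 CPM in epithelium and at 5.89, 6.77, 7.48 and 7.06 log2 CPM in mesenchyme. Within each pair it was lower in epithelium, by -1.21 (-1.82 to -0.63), -1.55 (-1.91 to -1.19) and -1.28 (-1.57 to -0.99) log2 units, although *Sca*/+ anterior epithelium lay level with WT anterior mesenchyme. *FZD6*, a receptor of planar polarity in mouse hair follicles, was higher in WT anterior epithelium by 1.13 (0.85 to 1.42), and *FZD3*, which acts with it in the mouse inner ear, was higher in *Sca*/+ posterior epithelium by 1.88 (1.42 to 2.37). *FZD5* was at 5.20, 5.87 and 5.11 log2 CPM in epithelium and at 4.70, 5.10, 3.84 and 5.11 log2 CPM in mesenchyme, and passed the rule in the *Sca*/+ anterior pair alone, at 2.03 (1.14 to 3.07), where its mesenchymal value rests on 11 steps. *FZD4*, which also binds Norrin in retinal vessels, differed by -1.17 (-2.04 to -0.36) in WT anterior tissue and by 1.88 (0.68 to 3.39) in *Sca*/+ anterior tissue.

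Of the receptors outside the Frizzled family, *ROR1*, a receptor tyrosine kinase that binds noncanonical ligands, was at 6.77, 6.42 and 7.52 log2 CPM in epithelium and at 5.36, 6.08, 5.33 and 6.41 log2 CPM in mesenchyme. The epithelial column was the higher one in each pair, by 1.41 (0.96 to 1.87), 1.08 (0.53 to 1.68) and 1.11 (0.85 to 1.38) log2 units. Its relative *ROR2* leaned to mesenchyme and was lower in *Sca*/+ posterior epithelium by -1.12 (-1.48 to -0.76). The coreceptor gene *LRP5* was lower in *Sca*/+ anterior epithelium by -1.04 (-1.24 to -0.85), while *LRP6* stayed between 7.20 and 7.99 log2 CPM in all 7 columns. *RNF43*, a ubiquitin ligase that takes Frizzled off the cell surface, was at 5.18, 4.29 and 4.17 log2 CPM in epithelium and at 2.53, 2.70, 3.55 and 2.50 log2 CPM in mesenchyme. All epithelial values lay above all mesenchymal ones, which rest on 7 to 10 steps each. The difference was 2.65 (1.56 to 3.93) in the WT anterior pair, 6.26-fold, and 1.67 (0.69 to 2.81) in the *Sca*/+ posterior pair, and it was 0.74 in the *Sca*/+ anterior pair, where its interval from -0.33 to 1.97 contains 0. *ZNRF3*, the paralog with the same task, was at 2.67, 4.14 and 3.44 log2 CPM in epithelium and at 1.85, 1.89, 3.55 and 2.18 log2 CPM in mesenchyme, with between 4 and 9 steps in each mesenchymal column.

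Inside the cell, *LEF1*, a TCF/LEF factor without which mouse tooth germs stop at the bud stage, was at 6.82, 7.16 and 5.22 log2 CPM in epithelium and at 5.76, 4.84, 5.77 and 4.70 log2 CPM in mesenchyme. It was higher in epithelium in both anterior pairs, by 1.07 (0.66 to 1.48) and 1.38 (0.91 to 1.89), while the posterior pair differed by 0.52 (0.02 to 1.04). *VANGL1* and *VANGL2*, membrane proteins of planar cell polarity, were higher in epithelium in WT anterior tissue by 1.67 (0.94 to 2.45) and 1.09 (0.23 to 2.02). A second pair passed the rule for each, *Sca*/+ posterior for *VANGL1* at 1.26 (0.80 to 1.74) and *Sca*/+ anterior for *VANGL2* at 1.37 (0.41 to 2.50). *VANGL2* had 4.71, 5.07 and 4.62 log2 CPM in epithelium and 3.62, 3.98, 3.70 and 3.88 log2 CPM in mesenchyme, again without overlap. The formin genes *DAAM1* and *DAAM2*, whose products act downstream of Dishevelled on the actin cytoskeleton, went opposite ways in *Sca*/+ posterior tissue, at 1.22 (0.87 to 1.59) and -1.18 (-1.39 to -0.97). *GSK3A*, which encodes a kinase of the destruction complex, differed by -1.67 (-3.03 to -0.48) in WT anterior and by 1.09 (-0.18 to 2.63) in *Sca*/+ anterior tissue, and *PORCN*, which encodes the enzyme that attaches the lipid to Wnt proteins, by -1.50 (-2.58 to -0.43) in *Sca*/+ anterior and 1.14 (0.16 to 2.24) in *Sca*/+ posterior tissue. *CSNK1G1*, a membrane-bound casein kinase, was higher in *Sca*/+ anterior epithelium by 1.07 (0.35 to 1.85). *TCF7* was higher in *Sca*/+ posterior epithelium by 1.91 (0.76 to 3.30), where the mesenchymal value rests on 7 steps.

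**Figure D3:**
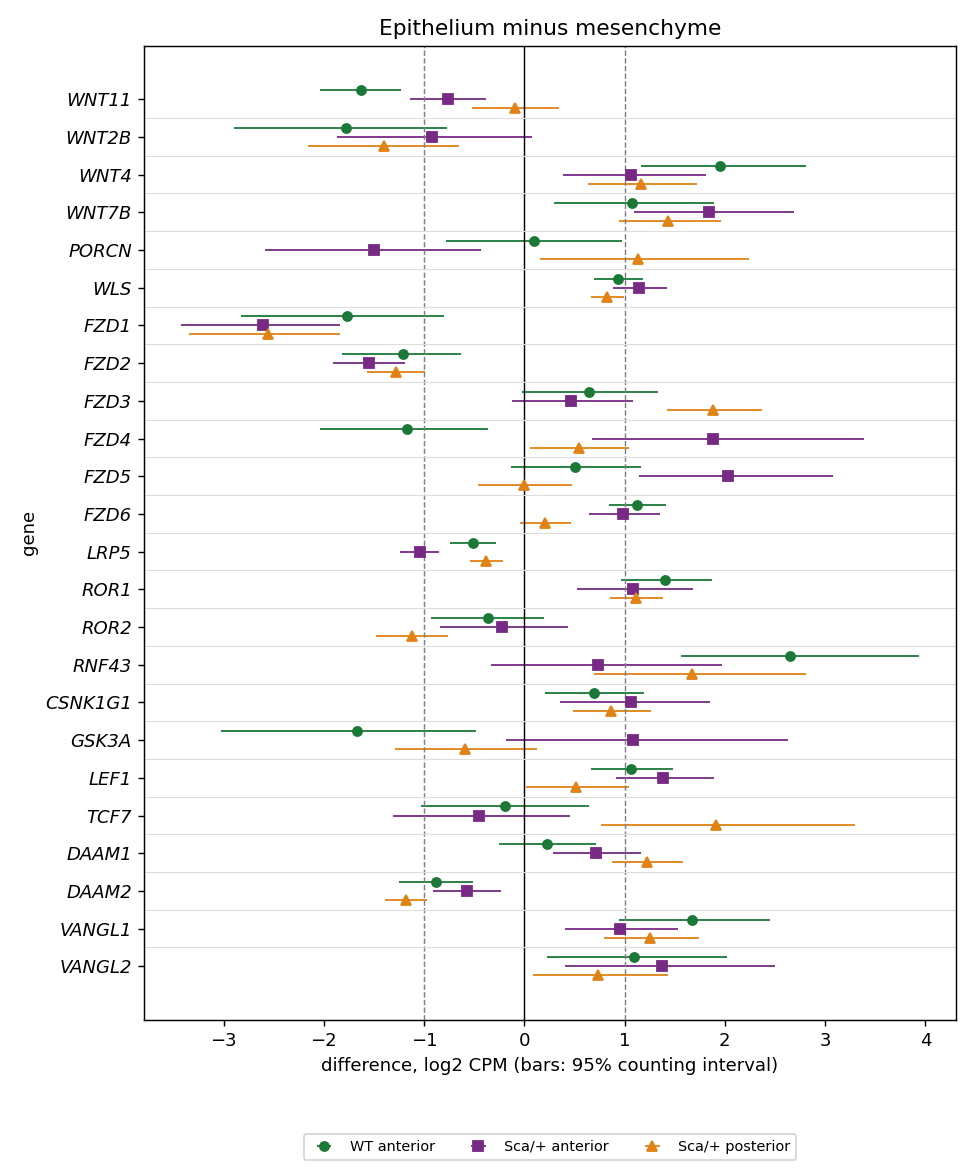
Difference in log2 CPM of epithelium from mesenchyme in WT anterior (circles), *Sca*/+ anterior (squares) and *Sca*/+ posterior (triangles) tissue, for the members past 1 log2 unit (dashed lines) in at least 1 pair; bars are 95% counting intervals and hold no variation between animals. *WNT4*, *WNT7B* and *ROR1* lie above 1 and *FZD1* and *FZD2* below -1 in all 3 pairs, whereas *FZD4*, *GSK3A* and *PORCN* change side between pairs.

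Between genotypes, the members with a difference were mostly higher in *Sca*/+ anterior tissue, and few passed the rule in posterior mesenchyme. In anterior epithelium 9 of 46 members were higher in *Sca*/+ (19.6%, against 12.2% of all genes) and 1 was lower (2.17%, against 10.0%). In anterior mesenchyme 8 were higher (17.4%, against 11.5%) and 2 lower (4.35%, against 8.37%). In posterior mesenchyme 1 was higher (2.17%, against 8.82%) and 3 were lower (6.52%, against 8.13%). The members' median difference was 0.27, 0.21 and -0.09 log2 units in these tissues, and over all genes it was 0.00, 0.04 and -0.00. With a minimum mean of 5 log2 CPM, which 28 members reach, 3, 2 and 0 members differed, all of them higher in *Sca*/+. The shares of all genes were not computed at that minimum, so this direction has no background beside it. *FZD2*, *DVL2* and *CTNNBL1* were higher in both anterior tissues (6.52% of the members, against 3.86% of all genes), and these 2 comparisons share no column. When the differences are centred on the median of all genes, *DVL2* in anterior mesenchyme comes to 0.995 and *RNF43* to 0.978, both short of the rule, so 6 members rather than 8 were higher there and only *FZD2* and *CTNNBL1* of these 3 passed in both tissues.

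*WNT7B* was higher in *Sca*/+ anterior epithelium by 1.23 log2 units (0.74 to 1.74), and *WNT4* in *Sca*/+ anterior mesenchyme by 1.15 (0.16 to 2.17). *WNT5B*, a ligand of the noncanonical branch, was at 4.50, 4.14 and 3.56 log2 CPM in epithelium and at 3.92, 5.14, 4.08 and 3.57 log2 CPM in mesenchyme. WT posterior mesenchyme was the highest column, and *Sca*/+ lay below it there by -1.57 (-2.41 to -0.76). Between these columns, *Sca*/+ and WT posterior mesenchyme, the mesenchymal markers summed to 63230 and 132048 CPM (none of 12 higher, 3 lower) and the epithelial ones to 5357 and 3193 CPM (3 of 12 higher, none lower), and their part in this and the other differences of posterior mesenchyme was not tested. *PORCN* was at 4.15, 2.97 and 3.78 log2 CPM in epithelium and at 4.05, 3.21, 4.47 and 2.64 log2 CPM in mesenchyme, between 10 and 44 steps. It was the only member lower in *Sca*/+ anterior epithelium, by -1.18 (-2.18 to -0.22).

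*FZD2* had the value 1.26 (0.71 to 1.84) for *Sca*/+ minus WT in anterior epithelium and 1.59 (1.19 to 2.00) in anterior mesenchyme, but 0.28 in posterior mesenchyme. *FZD7*, a Frizzled of stem cells in mouse intestine, was at 4.75, 5.29 and 5.15 log2 CPM in epithelium and at 4.17, 4.65, 6.05 and 4.91 log2 CPM in mesenchyme. *Sca*/+ anterior mesenchyme was the highest of the 7 columns, 3.68-fold above WT, a difference of 1.88 (1.16 to 2.63). *FZD1* was higher in the same tissue by 1.11 (0.48 to 1.76). Between these columns, *Sca*/+ and WT anterior mesenchyme, the 12 mesenchymal markers summed to 107909 and 43048 CPM, with 7 of 12 higher and 1 lower, and the 12 epithelial markers to 6730 and 4121 CPM, and the part of tissue makeup in these receptor differences was not tested. *FZD4* was at 3.75, 4.85 and 5.34 log2 CPM in epithelium and at 4.92, 5.87, 2.97 and 4.79 log2 CPM in mesenchyme. In *Sca*/+ anterior mesenchyme it had 6 steps, 3.88-fold below WT (-1.96, interval -3.48 to -0.72), and it was also lower in posterior mesenchyme by -1.07 (-1.64 to -0.51) and higher in anterior epithelium by 1.10 (0.33 to 1.93). The 6 endothelial markers in the table summed to 1319 CPM in the first of these columns, beside 1084 CPM in WT, and to 1728 and 2726 CPM in *Sca*/+ and WT posterior mesenchyme, and their part was not tested. *FZD8* was at 4.59, 4.58 and 5.41 log2 CPM in epithelium and at 3.62, 3.89, 3.70 and 4.91 log2 CPM in mesenchyme, and was the only member higher in *Sca*/+ posterior mesenchyme, by 1.02 (0.19 to 1.92).

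The Dishevelled genes, which relay the signal from Frizzled, differed among themselves. *DVL2* was at 4.15, 5.51 and 4.96 log2 CPM in epithelium and at 4.70, 5.10, 5.74 and 4.61 log2 CPM in mesenchyme, and was higher in *Sca*/+ anterior epithelium by 1.36 (0.71 to 2.06) and in *Sca*/+ anterior mesenchyme by 1.04 (0.36 to 1.73). *DVL3* was at 4.46, 5.61 and 5.26 log2 CPM in epithelium and at 4.85, 5.45, 5.08 and 5.79 log2 CPM in mesenchyme, and was higher in *Sca*/+ anterior epithelium alone, by 1.15 (0.56 to 1.78). *DVL1* had differences of -0.69, -0.67 and -0.89 log2 units in the 3 genotype comparisons, none of them past the rule. *GSK3A* was at 2.50, 4.05 and 3.64 log2 CPM in epithelium and at 4.17, 4.14, 2.97 and 4.22 log2 CPM in mesenchyme. It was higher in *Sca*/+ anterior epithelium by 1.55 (0.41 to 2.87) and lower in *Sca*/+ anterior mesenchyme by -1.21 (-2.78 to 0.11), the latter from 6 against 25 steps and with an interval that contains 0. *CSNK1G2* was at 4.31, 5.43 and 4.72 log2 CPM in epithelium and at 4.66, 4.84, 4.77 and 4.43 log2 CPM in mesenchyme, with a difference of 1.11 (0.49 to 1.78) in anterior epithelium. *RNF43* passed the rule in anterior mesenchyme at 1.02, from 9 against 8 steps and with an interval from -0.53 to 2.59. *ZNRF3* differed by 1.46 (0.38 to 2.70) in anterior epithelium, and by 1.70 (-0.03 to 3.62) in anterior mesenchyme from 9 against 5 steps.

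*TCF7*, a TCF/LEF factor known from T cells, was at 4.15, 4.10 and 3.90 log2 CPM in epithelium and at 4.34, 3.70, 4.55 and 1.99 log2 CPM in mesenchyme. *Sca*/+ posterior mesenchyme stood below the other 6 columns, 1.71 log2 units under WT (interval of the difference -3.26 to -0.31, 7 against 14 steps). *DAAM1* was at 5.82, 6.88 and 6.78 log2 CPM in epithelium and at 5.60, 5.98, 6.16 and 5.56 log2 CPM in mesenchyme, higher in *Sca*/+ anterior epithelium by 1.05 (0.68 to 1.44). *VANGL1* was at 5.59, 6.38 and 6.02 log2 CPM in epithelium and at 3.92, 5.38, 5.42 and 4.76 log2 CPM in mesenchyme. WT anterior mesenchyme was its lowest column, and *Sca*/+ was higher there by 1.50 (0.67 to 2.37). *CTNNBL1* matched the rule by its name, but its product is a protein of the spliceosome rather than a transducer of Wnt signals. It was at 3.96, 5.16 and 4.89 log2 CPM in epithelium and at 3.62, 3.98, 5.13 and 4.57 log2 CPM in mesenchyme, with genotype differences of 1.19 (0.49 to 1.95), 1.52 (0.59 to 2.48) and 0.59 (-0.25 to 1.50).

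**Figure D4:**
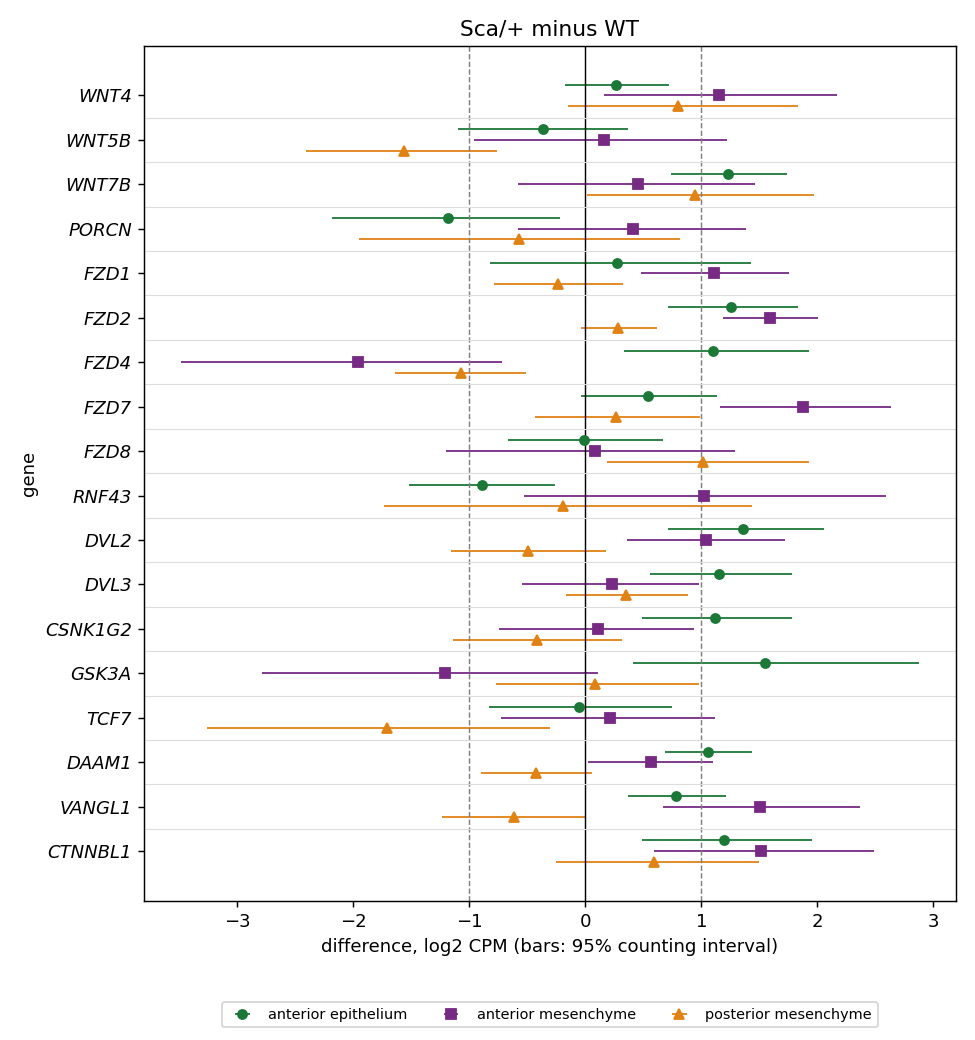
Difference in log2 CPM of *Sca*/+ from WT in anterior epithelium (circles), anterior mesenchyme (squares) and posterior mesenchyme (triangles), for the members past 1 log2 unit (dashed lines) in at least 1 tissue; bars are 95% counting intervals and hold no variation between animals. *FZD2*, *DVL2* and *CTNNBL1* lie above 1 in both anterior tissues, and *FZD4* lies above 1 in epithelium and below -1 in both mesenchymes.

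Between jaw positions, *LEF1* and *WNT11* had the lower values at the posterior position. In *Sca*/+ epithelium *LEF1* was the only member lower at the posterior position (2.17% of the members, against 6.68% of all genes), and *ROR1* the only one higher (2.17%, against 7.02%). With columns centred or scaled to the same upper quartile, *WNT11* passed the rule as well, which makes 2 lower and 1 higher. *LEF1* differed there by -1.93 log2 units (-2.25 to -1.62), 3.82-fold, from 292 against 120 steps. In *Sca*/+ mesenchyme it was lower by -1.07 (-1.70 to -0.43), and in WT mesenchyme the difference was -0.91, short of the rule. *ROR1* was higher at the posterior position by 1.11 (0.86 to 1.36) in *Sca*/+ epithelium and by 1.08 (0.51 to 1.68) in *Sca*/+ mesenchyme, with 0.72 in WT mesenchyme. Between the *Sca*/+ epithelium columns, posterior and anterior, the 12 mesenchymal markers summed to 14583 and 8204 CPM, with 5 of 12 higher and none lower, and the 12 epithelial markers to 16164 and 15530 CPM. The endothelial markers summed to 62.8 and 27.8 CPM (5 of 6 higher) and those of bone and dentin to 1024 and 314 CPM (3 of 3 higher), and the part of these markers in the differences was not tested. *WNT11* was lower at the posterior position in WT mesenchyme by -1.39 (-1.83 to -0.98) and in *Sca*/+ mesenchyme by -1.64 (-2.10 to -1.19), and its difference of -0.98 in *Sca*/+ epithelium fell just short.

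In WT mesenchyme 4 of 46 members were higher at the posterior position (8.70%, against 9.15% of all genes) and 1, *WNT11*, was lower (2.17%, against 7.97%). The higher ones were *TCF7L1*, a TCF factor that acts mostly as a repressor, at 1.53 (1.14 to 1.93), *VANGL1* at 1.46 (0.68 to 2.28), *DAAM2* at 1.23 (0.96 to 1.51) and *WNT5B* at 1.22 (0.41 to 2.06). *DAAM2* was at 6.12, 6.62 and 6.77 log2 CPM in epithelium and at 7.00, 8.23, 7.20 and 7.95 log2 CPM in mesenchyme, so that both posterior mesenchymes were above both anterior ones. *TCF7L1* had the same order in mesenchyme, at 7.38 and 7.39 log2 CPM in the posterior columns and 5.85 and 6.77 log2 CPM in the anterior ones. The mesenchymal markers summed to 132048 CPM in WT posterior and 43048 CPM in WT anterior mesenchyme (5 of 12 higher, none lower). In the same columns the epithelial markers summed to 3193 and 4121 CPM (1 of 12 higher, 3 lower). Other cell types moved as well, with endothelial markers at 2726 and 1084 CPM (3 of 6 higher), bone and dentin markers at 3124 and 1096 CPM (2 of 3 higher), *ACTA1* of muscle at 261 and 7.94 CPM, *MBP* of nerve and glia at 1008 and 187 CPM, and leukocyte markers at 95.5 and 333 CPM (3 of 3 lower). The part of these markers in the differences was not tested.

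In *Sca*/+ mesenchyme 5 members were higher at the posterior position (10.9%, against 8.34% of all genes) and 7 were lower (15.2%, against 10.4%). Besides *ROR1*, the higher ones were *FZD4* at 1.83 (0.61 to 3.34), *FZD5* at 1.27 (0.33 to 2.35), *GSK3A* at 1.26 (-0.01 to 2.81) and *FZD8* at 1.21 (0.22 to 2.35), each from 6 to 11 steps in the anterior column. Besides *WNT11* and *LEF1*, the lower ones were *TCF7* at -2.56 (-4.06 to -1.23), *PORCN* at -1.83 (-3.07 to -0.65), *FZD7* at -1.14 (-1.73 to -0.56), *DVL2* at -1.13 (-1.78 to -0.48) and *RNF43* at -1.05 (-2.50 to 0.43). Of these 12 calls, 5 remain when only members with at least 20 steps in both columns are counted. The median of the size of the members' differences was 0.67 log2 units in this comparison, beside 0.45 over all genes, and the anterior column is the shallowest of the 7. From the anterior to the posterior column the mesenchymal markers summed to 107909 and 63230 CPM (2 of 12 higher, 1 lower), the 3 markers of bone and dentin to 1666 and 5044 CPM, and the 3 leukocyte markers to 185 and 93.5 CPM. The epithelial markers summed to 6730 and 5357 CPM (none of 12 higher, 2 lower). The single muscle marker in the table, *ACTA1*, was at 23.4 and 258 CPM and the single nerve and glia marker, *MBP*, at 258 and 1241 CPM, and the part of these cell types in the differences was not tested.

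Of the 46 members 14 passed 1 log2 unit in none of the 9 comparisons (30.4%, against 34.6% of all genes), and 9 had a range under 1 log2 unit over the 7 columns (19.6%, against 23.6% of all genes): *APC*, *RYK*, *CSNK1E*, *GSK3B*, *LRP6*, *CTNNB1*, *CSNK1G3*, *TCF7L2* and *CSNK1A1*. Both shares lie near those of all genes. *CTNNB1*, which encodes beta-catenin, was at 8.79, 9.25 and 9.16 log2 CPM in epithelium and at 8.52, 8.83, 9.32 and 9.07 log2 CPM in mesenchyme. *APC*, the scaffold of the destruction complex, kept between 7.30 and 7.90 log2 CPM, the narrowest range of any member at 0.60. *AXIN2*, a scaffold whose transcription canonical signaling raises in many tissues, was at 6.69, 6.62 and 5.87 log2 CPM in epithelium and at 6.04, 6.04, 6.89 and 6.12 log2 CPM in mesenchyme. Its largest genotype difference was 0.85, in anterior mesenchyme. *AXIN2*, *CSNK1D*, *CTNNBIP1*, which encodes an inhibitor of beta-catenin binding to TCF factors, *DVL1* and the corepressor gene *TLE4* were the other members that passed the rule in none of the comparisons. The median range of the members was 1.58 log2 units, beside 1.48 over all genes kept.

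Of 62 other genes of the pathway listed for comparison (secreted inhibitors, R-spondins and their receptors, polarity proteins, nuclear cofactors and targets), 46 were in the table and 44 were kept. By genotype, anterior epithelium had 7 of them higher in *Sca*/+ and 6 lower (15.9% and 13.6%). Anterior mesenchyme had 4 higher and 5 lower (9.09% and 11.4%), and posterior mesenchyme 3 and 2 (6.82% and 4.55%), to be read beside the shares of all genes given above for the same comparisons. The polarity gene *PRICKLE2* was lower in *Sca*/+ anterior epithelium by -1.78 log2 units (-2.51 to -1.08) and in *Sca*/+ anterior mesenchyme by -1.57 (-2.51 to -0.74). Its difference of -0.93 in posterior mesenchyme fell short of the rule. In *Sca*/+ anterior epithelium *LGR5*, a receptor for R-spondins, was lower by -3.12 log2 units (-4.66 to -1.86), and *SCRIB*, a polarity scaffold, was higher by 1.75 (1.20 to 2.34). The *LGR5* value there was 1.55 log2 CPM, in a column whose lowest value is 1.47 CPM or 3 steps. *LGR5* was higher in mesenchyme than in epithelium in each pair, and between these epithelium columns, *Sca*/+ and WT, the mesenchymal markers summed to 8204 and 9509 CPM (1 of 12 higher, 3 lower) and the endothelial ones to 27.8 and 85.7 CPM, and their part in the difference was not tested. The cadherin gene *CELSR2*, of planar polarity, was higher in *Sca*/+ anterior mesenchyme by 1.85 (1.35 to 2.37). In *Sca*/+ posterior mesenchyme *DACT2* was higher by 1.59 (0.78 to 2.50), and *SFRP1*, a secreted inhibitor, was lower by -1.54 (-2.28 to -0.83). *DACT2* was also higher in *Sca*/+ anterior epithelium, by 1.23 (1.01 to 1.46), with 0.62 in anterior mesenchyme. *SFRP1* went the other way in the anterior tissues, at 0.81 in epithelium and 0.92 in mesenchyme, both short of the rule. The paper tested genotype on 3 biological replicates. Among conserved targets of EDA signaling, in which it counts Wnt and BMP inhibitors, it reports only *SHH* as significantly different between mutant and WT. Its text does not name *SFRP1*, and its supplementary list of differentially expressed genes is not compared here. Between positions, 4 were higher and 3 lower in WT mesenchyme (9.09% and 6.82%, against 9.15% and 7.97% of all genes), which is near the background. In *Sca*/+ mesenchyme 5 were higher and 5 lower (11.4% each, against 8.34% and 10.4%), and in *Sca*/+ epithelium 4 and 5 (9.09% and 11.4%, against 7.02% and 6.68%). Between compartments, epithelium of the WT anterior pair had 7 higher and 6 lower (15.9% and 13.6%, against 8.66% and 12.7%). The *Sca*/+ anterior pair had 6 and 9 (13.6% and 20.5%, against 11.5% and 14.3%), and the *Sca*/+ posterior pair 4 and 6 (9.09% and 13.6%, against 12.1% and 13.7%).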

How the data were processed

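RNA of 24 laser-captured samples (8 groups of 3) was sequenced from rRNA-depleted libraries. According to the methods and the submitters' processing notes, the authors used Trimmomatic for trimming, STAR for alignment to the species' genome and for gene counts, and edgeR for normalization. Tool versions are not given in the sources used here. The deposited values are log2 CPM, named as means, in 8 columns of 11126 genes. They were used as deposited, with no pseudocount. Of the 47 member symbols, 46 are in the RefSeq annotation of the species, but no coordinates or sequences were used.

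The smallest step of each column was fitted to its CPM values. Whether a column holds 1 library or several pooled is unknown. Genes averaging 3 log2 CPM or more over the 7 usable columns were compared by difference of columns, called at 1 log2 unit, with exact 95% counting intervals. Whole tables were compared and members' rows taken from them. Members and lists were chosen with earlier results of these data known. Genes named with all 7 values are those past 1 log2 unit with an interval without 0 in a genotype comparison or in at least 2 others, and, chosen after their values were seen, *AXIN2*, *CTNNB1* and *ZNRF3*. Alternatives were no filter, a minimum of 5 log2 CPM, centring, upper quartile scaling, log2(CPM + 1), calls whose interval leaves out 0, a member list without *CTNNBL1* and the casein kinase genes other than *CSNK1A1*, and, chosen after seeing the data, a minimum of 20 steps in both columns. Scripts were tested on simulated data. The software was matplotlib 3.10.9 for plots and Python 3.11.15 with scipy 1.17.1, pandas 2.3.3 and numpy 2.4.6.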

Additional observations from a re-analysis of the deposited data

Results flagged for a closer look

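Some members moved past 1 log2 unit in opposite directions under the same contrast in 2 tissues. With 1 column per group, none of these differences was tested. *FZD4* was higher in *Sca*/+ anterior epithelium (1.10) and lower in *Sca*/+ anterior mesenchyme (-1.96), and these genotype differences lie 3.05 log2 units apart. The anterior epithelium and posterior mesenchyme (-1.07) differences lie 2.17 apart. The same 4 anterior columns, read as epithelium minus mesenchyme in WT and in *Sca*/+, give -3.05. *GSK3A* was likewise higher in *Sca*/+ anterior epithelium (1.55) and lower in anterior mesenchyme (-1.21), 2.76 log2 units apart, or -2.76 when read by compartment. The *FZD4* and *GSK3A* values in *Sca*/+ anterior mesenchyme rest on 6 steps each. *PORCN* was lower in epithelium than mesenchyme in *Sca*/+ anterior tissue (-1.50) and higher in *Sca*/+ posterior tissue (1.14). The first minus the second is -2.64, from between 11 and 44 steps per column.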

How the results depend on the processing

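Of 72 recomputed counts of members past 1 log2 unit, 60 stayed within 1.5 times the count reported and 12 did not. The 255 recomputed differences of single members kept their direction and stayed within their counting intervals. These were differences already past 1 log2 unit, recomputed with centring, upper quartile scaling or log2(CPM + 1). Such changes are too small to reverse a difference of that size, so the kept direction carries no weight. With a minimum of 5 log2 CPM, which leaves 28 members, the counts by genotype were 3 in anterior epithelium, 2 in anterior mesenchyme and 0 in posterior mesenchyme, those by compartment 6 in WT anterior, 6 in *Sca*/+ anterior and 7 in *Sca*/+ posterior tissue, and that by position 3 in *Sca*/+ mesenchyme. Where each column had to hold 20 steps or more, a setting chosen after seeing the data, the count was 5 in anterior mesenchyme and 2 in posterior mesenchyme by genotype, 7 in each anterior pair by compartment, and 5 between positions of *Sca*/+ mesenchyme. Both changes leave fewer members to count, and the shares of all genes were not recomputed for them. Upper quartile scaling and centring each gave 1 higher and 2 lower between the *Sca*/+ epithelium positions, in place of 1 and 1, since *WNT11* joined. In the *Sca*/+ anterior pair by compartment, upper quartile scaling gave 12 higher and 3 lower, in place of 10 and 4, and *LRP5* came to -0.978, short of the rule. With log2(CPM + 1) *GSK3A* came to 0.998 in that pair, also short of the rule. Centring left 6 higher in anterior mesenchyme by genotype, in place of 8, without *DVL2* (0.995) and *RNF43* (0.978). With log2(CPM + 1) posterior mesenchyme had 0 higher and 3 lower by genotype, in place of 1 and 3. With upper quartile scaling the median of all genes was at most 0.11 log2 units from 0. No paired analysis was possible because the table holds 1 column per group, and for the same reason no replicate could be left out and the limma fits planned for columns of single animals were not run. Depth limits the members with few steps, such as *ZNRF3*, *RNF43*, *TCF7* and *GSK3A*.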

Other observations

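Several secreted or membrane-bound modulators of the pathway had wide ranges between tissues, given here as values. *LGR5* was at 4.67, 1.55 and 3.60 log2 CPM in epithelium (WT anterior, *Sca*/+ anterior, *Sca*/+ posterior) and at 7.74, 7.47, 6.57 and 8.03 log2 CPM in mesenchyme (WT anterior, WT posterior, *Sca*/+ anterior, *Sca*/+ posterior). Every mesenchymal column lay above every epithelial one. *SFRP4*, a secreted inhibitor, showed the same split, at 0.51, 1.55 and 1.77 log2 CPM in epithelium and at 5.34, 5.41, 4.29 and 5.75 log2 CPM in mesenchyme. Its WT anterior epithelium value is the lowest of that column, 1.42 CPM or 2 steps. In *Sca*/+ anterior epithelium *LGR5* and *SFRP4* were both at 1.55 log2 CPM, in a column whose lowest value is 1.47 CPM or 3 steps. *SFRP2* was higher in *Sca*/+ posterior than in *Sca*/+ anterior epithelium by 2.40 log2 units (2.00 to 2.82). Its level was higher still in mesenchyme, between 7.98 and 9.05 log2 CPM, and from the anterior to the posterior column of this comparison the mesenchymal markers summed to 8204 and 14583 CPM (5 of 12 higher, none lower) and the endothelial ones to 27.8 and 62.8 CPM (5 of 6 higher). Their part in the difference was not tested.

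Of the genes that canonical signaling raises in other vertebrates, those picked here did not share a direction between positions. *SP5* was lower at the posterior position in all 3 comparisons and *APCDD1* in both mesenchymes. *SP5* was at 5.21 and 3.81 log2 CPM in *Sca*/+ anterior and posterior epithelium and differed between the positions by -1.41 log2 units (-1.97 to -0.86). Its position difference was -2.18 (-3.90 to -0.79) in WT mesenchyme and -1.29 (-2.37 to -0.21) in *Sca*/+ mesenchyme. *APCDD1* differed by -1.33 (-1.75 to -0.93) in WT mesenchyme and by -1.51 (-1.88 to -1.13) in *Sca*/+ mesenchyme. In *Sca*/+ epithelium the difference of *APCDD1* was -0.95, short of the rule. *NKD1* was higher at the posterior position of *Sca*/+ mesenchyme by 1.77 (0.86 to 2.82). *LGR5* was higher there by 1.46 (1.10 to 1.84) and in *Sca*/+ epithelium by 2.05 (0.80 to 3.58). In WT mesenchyme *NKD1* differed by 0.31 and *LGR5* by -0.27, both short of the rule. *AXIN2* differed by 0.00 in WT mesenchyme, by -0.76 (-1.17 to -0.36) in *Sca*/+ mesenchyme and by -0.75 (-1.04 to -0.45) in *Sca*/+ epithelium. None of these *AXIN2* differences passed the rule. *FRZB*, a secreted inhibitor, was higher at the posterior position, at 2.65 (1.53 to 3.96) in WT mesenchyme and 1.51 (0.72 to 2.40) in *Sca*/+ mesenchyme. Some of these values were low. *FRZB* was at 2.53 log2 CPM in WT anterior mesenchyme, *SP5* at 2.21 in WT posterior mesenchyme and *LGR5* at 1.55 in *Sca*/+ anterior epithelium. The cell type markers given above also differed between the positions, and their part in these differences was not tested. The genes of this paragraph were picked after their values were seen.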
